A study of Drosophila melanogaster with 6 samples.

Results

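The fat body storage protein genes encode larval serum proteins and other products of the fat body of Drosophila melanogaster, and were grouped as marks of age within the third instar. The list held 8 genes, Lsp1alpha, Lsp1beta, Lsp1gamma, Lsp2, Fbp1, Fbp2, CG5958 and fat-spondin, and a probe set counted as a member when the platform annotation gave it 1 of these names. This found 5 probe sets, 1 each for Lsp2, Fbp1, Fbp2, CG5958 and fat-spondin, among 18952 on the array. The 3 Lsp1 genes were not analysed here.

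The fat body is the larval counterpart of liver and adipose tissue. In the feeding larva it secretes hexamerins, large serum proteins of joined subunits, into the haemolymph, and late in larval life it takes them back up as an amino acid store for building the adult. Their genes are switched on as the third instar proceeds, and the steroid hormone ecdysone and GATA factors act on several of them.

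RNA came from whole young larvae of the third instar, all tissues together, that fed on baker's yeast. The 3 gain samples carried a P-element transgene, made in the w1118 strain, from which heat induces the full-length cDNA of DHR96, the nuclear receptor encoded by Hr96. The 3 control samples were w1118 larvae without a transgene. Both groups were heated for 1 h at 37.5 °C, starting 3 h after the moult from L2 to L3, and RNA was extracted 4 h later. A heat-shock promoter acts in most tissues, no transgenic larvae without heat were analysed here, and the labels do not say that the arrays of a group came from separate cultures, so p-values measure the spread between these samples only. Any difference in stage or in genetic background between the groups enters each value as well.

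All values are log2 intensities of 1 probe set. Hr96 had log2 values of 14.73, 14.71 and 14.64 in gain larvae, against 9.47, 9.82 and 9.50 in control larvae, a 34.2-fold difference (limma adjusted p = 1.86e-05), so the arrays went with their labels. A log2 value of 4, the floor for a test, was reached by 44.5% to 45.0% of the 18769 probe sets other than array controls on each array, and 7974 genes or unnamed probe sets were tested. The median difference of all tests was -0.15. The array of gain 2 lay 0.27 below the mean array in its median, a difference of -0.27, while the other 5 arrays lay between -0.0038 and 0.09.

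None of the 5 measured storage protein genes passed the test of gain against control (limma, adjusted p under 0.05), with 3.93% of all tests called in either direction. Their groups overlapped on all 5 probe sets, while the groups did not overlap in 30.7% of all tests, with gain lower in 25.2% and higher in 5.49%. Of all tests 3.47% were called lower in gain and 0.451% higher. Lsp2, Fbp2, CG5958 and fat-spondin had negative differences and Fbp1 a positive one, and their median was -0.16, against -0.15 for all tests. In whole larvae, fewer fat body cells and less RNA per fat body cell cannot be told apart. The genes fell into a pair of kinds by their spread between arrays of a group. Lsp2, Fbp1 and Fbp2 varied severalfold in 1 group or both, and CG5958 and fat-spondin by at most 1.52-fold.

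**Figure D1:**
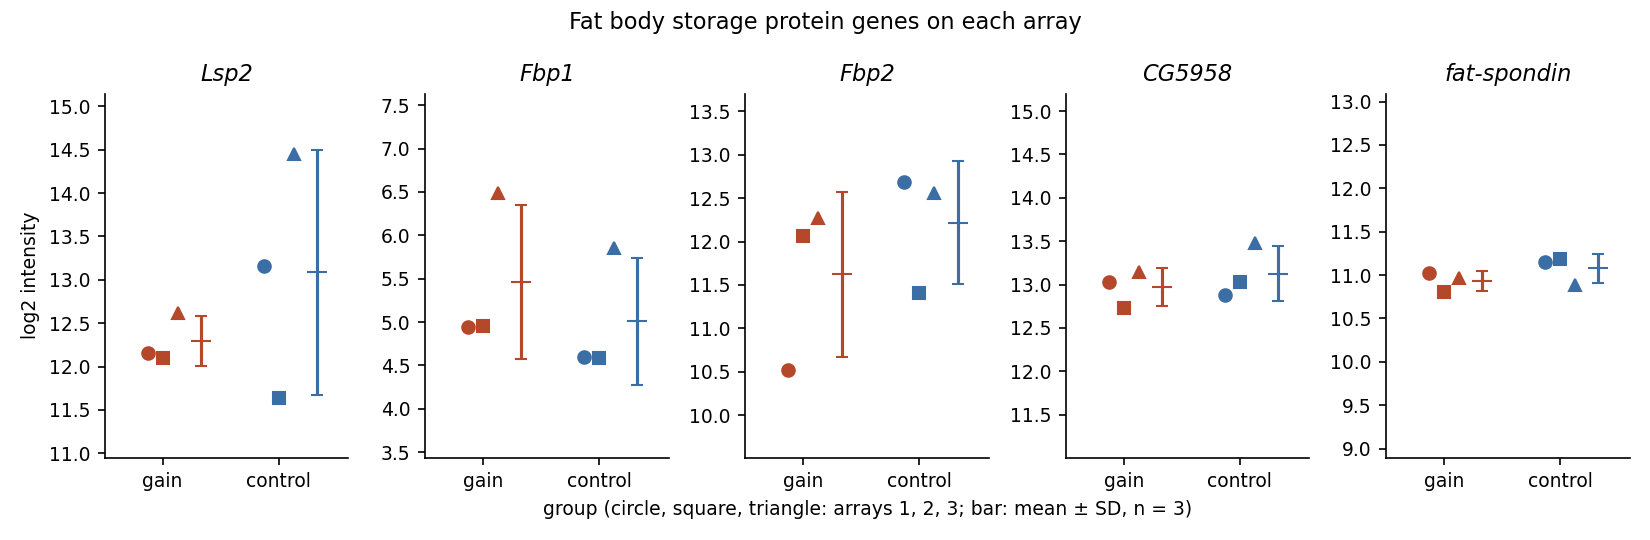
Log2 intensity of the 5 measured storage protein genes (vertical axes, each spanning the same range of log2 units) in gain and control larvae, with 1 point per array and the mean ± SD of 3 arrays beside the points. The 3 control values of Lsp2 spread over 2.81 log2 units around the gain values, Fbp1 is highest on gain 3 and control 3, and the points of CG5958 and fat-spondin lie close together.

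Lsp2 encodes the hexamerin of a single kind of subunit. Its log2 values were 12.16, 12.10 and 12.62 in gain larvae, against 13.16, 11.64 and 14.45 in control larvae. As deposited intensities these were 4576, 4384 and 6303 in gain, against 9138, 3195 and 22454 in control. The gain arrays thus lay between the lowest and the highest control, with control 2 the lowest and control 3 the highest of the 6 arrays. The highest gain array was 1.44 times the lowest, and the highest control array 7.03 times the lowest. The mean was 12.29 ± 0.29 in gain and 13.08 ± 1.41 in control (SD, n = 3 each), a log2 difference of -0.79 ± 0.66 (SE, limma adjusted p = 0.523). The 95% interval ran from -2.37 to 0.79, so neither a fall to 0.194 of the control level nor a rise of 1.72-fold lay outside it. With this spread, only a log2 difference of 3.28, or 9.73-fold, would have passed. Without control 3 the difference was -0.11, and without control 2 it was -1.51, and neither passed.

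Fbp1 encodes the receptor through which the fat body takes hexamerins back up, itself a relative of the hexamerins. Its signal was close to the floor of 4 on most arrays. Its log2 values were 4.94, 4.95 and 6.49 in gain larvae, against 4.59, 4.58 and 5.85 in control larvae. Gain 3 and control 3 stood above the other 4 arrays, which lay between 4.58 and 4.95. The mean was 5.46 ± 0.89 in gain and 5.01 ± 0.73 in control (SD, n = 3 each). The difference was 0.45 ± 0.53 (SE, limma adjusted p = 0.668), with a 95% interval from -0.82 to 1.72. Without gain 3 it was -0.06, so the positive sign rested on that array. A difference of 2.64 would have been needed to pass.

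Fbp2 encodes a fat body protein of the alcohol dehydrogenase family. Its log2 values were 10.52, 12.07 and 12.27 in gain larvae, against 12.69, 11.40 and 12.56 in control larvae. Gain 1 was the lowest and control 1 the highest, and control 2 lay below gain 2 and gain 3. The highest array was 3.35 times the lowest in gain and 2.44 times in control. The mean was 11.62 ± 0.96 in gain and 12.22 ± 0.71 in control (SD, n = 3 each), a difference of -0.59 ± 0.55 (SE, limma adjusted p = 0.567, 95% interval from -1.91 to 0.72). Without gain 1 the difference was -0.05 and without control 2 it was -1.0. Fbp2 was called lower in 1 of the 20 other fits, with arrays weighted by their estimated quality, at -1.62 (adjusted p = 0.0411, and from 0.38 to 0.959 in the other 19).

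CG5958 encodes a protein with a CRAL-TRIO domain, a fold that holds small lipids, and its role in the fly is not established. Its log2 values were 13.03, 12.72 and 13.15 in gain larvae, against 12.88, 13.02 and 13.48 in control larvae. Gain 2 was the lowest and control 3 the highest, so each group held an extreme array. Control 1 and control 2 lay below gain 1 and gain 3. The difference was -0.16 ± 0.19 (SE, limma adjusted p = 0.687), with a 95% interval from -0.62 to 0.31, or from 0.648 to 1.24 times the control level. It lay at the median of all tests, -0.15, and turned to 0.09 with median centring of the arrays, to 0.12 with array weights and to 0.02 without control 3.

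The secreted protein of fat-spondin shares the spondin domain of matrix proteins and passes from the fat body into the haemolymph. The log2 values of the gene were 11.02, 10.80 and 10.96 in gain larvae, against 11.15, 11.19 and 10.89 in control larvae. Control 3 lay among the gain arrays, and control 1 and control 2 above all of them. The difference was -0.15 ± 0.13 (SE, limma adjusted p = 0.541), with a 95% interval from -0.45 to 0.16, the narrowest of the 5 genes. A difference of 0.63, or 1.55-fold, would have passed. Under median centring the difference was 0.10, so its sign depended on the scaling, as did that of CG5958.

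**Figure D2:**
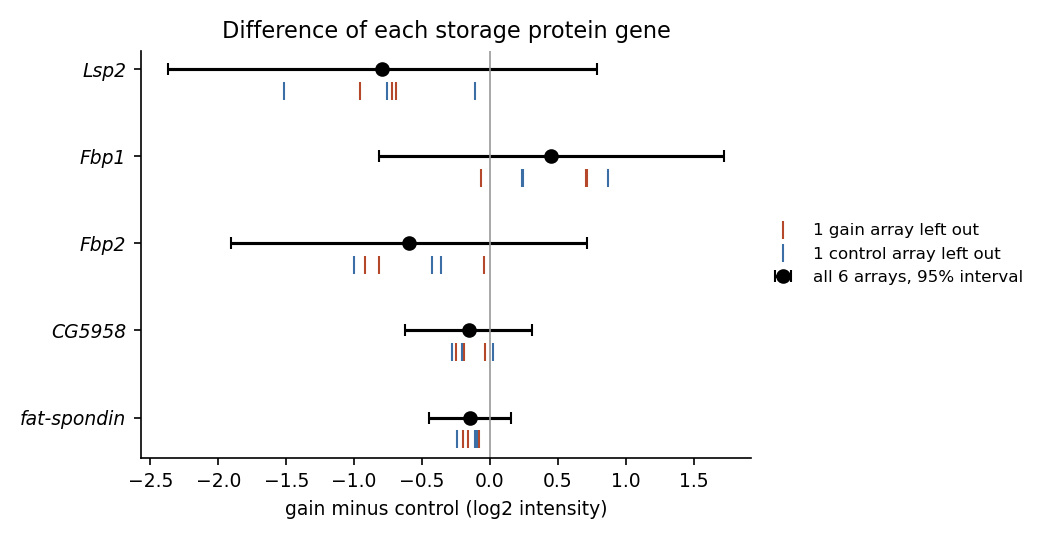
Log2 difference of gain minus control (horizontal axis) for each storage protein gene, with the 95% interval from all 6 arrays and, under it, the difference with 1 array left out, marked by the group of that array. Each interval holds 0, and the marks of Lsp2 run from -1.51 without control 2 to -0.11 without control 3.

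The spread within groups set Lsp2, Fbp2 and Fbp1 near the top of all tests. The within-group SD, pooled over both groups, was 1.02 for Lsp2, 0.84 for Fbp2 and 0.81 for Fbp1, against a median of 0.20 over all tests. Of 7974 tests 46 had a larger one than Lsp2, 81 a larger one than Fbp2 and 89 a larger one than Fbp1. For CG5958 it was 0.27 and for fat-spondin 0.14, above 71.4% and 28.2% of all tests. In gain larvae alone the SD of Lsp2, 0.29, exceeded that of 70.5% of tests, and in control larvae alone, at 1.41, that of 99.6%. Whether Lsp2 varied less in gain than in control larvae was not tested.

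**Figure D3:**
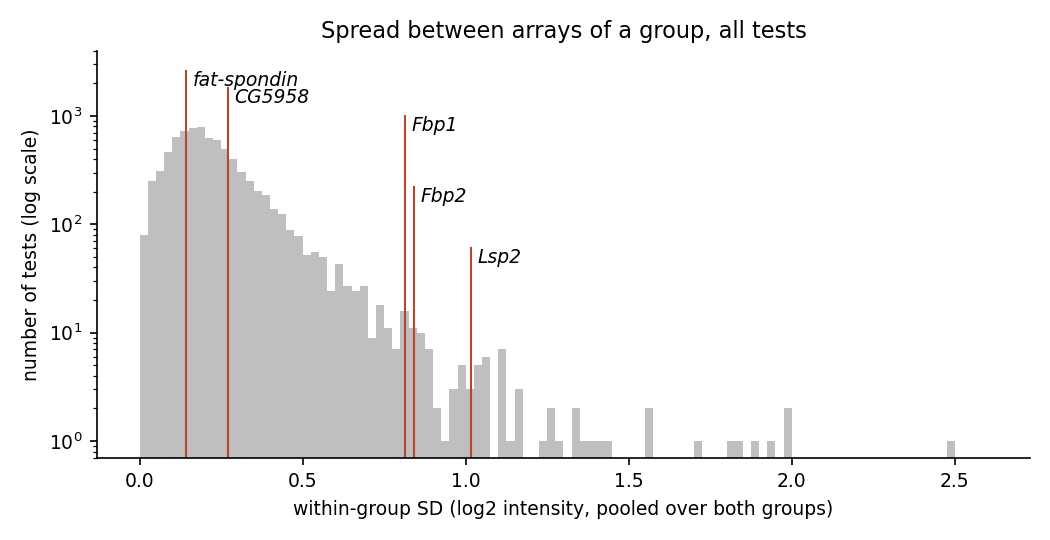
Number of tests (vertical axis, log scale) by within-group SD of the log2 intensity (horizontal axis), with lines at the 5 storage protein genes. Lsp2, at 1.02, Fbp2, at 0.84, and Fbp1, at 0.81, lie in the thin right tail, and fat-spondin and CG5958 within the bulk.

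The spread of Lsp2 and Fbp2 also separated control 1 and control 2, the most alike of the 6 pairs of arrays within a group. Between these only 31 of 7974 tests, or 0.389%, differed at least 2-fold, against 88 to 383 tests in the other 5 pairs within a group. Lsp2 and Fbp2 were among the 31: control 1 stood 2.86-fold above control 2 for Lsp2 and 2.44-fold for Fbp2. Lsp2 was exceeded by 9 tests and Fbp2 by 12. Fbp1 did not follow them, with a ratio of 1.01 between the same arrays. On control 3 Lsp2 lay 2.06 above the mean of the other controls, a gap exceeded in 41 tests. Fbp1 lay 1.26 above them there, exceeded in 135 tests, while fat-spondin lay 0.28 below them, a difference of -0.28.

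The 5 genes differed in how close their profiles over the arrays lay. After centring each gene on its mean, the root mean square distance over the 6 arrays was 0.72 between Lsp2 and Fbp2, 0.88 between Lsp2 and Fbp1 and 0.84 between Fbp1 and Fbp2, against SDs over the 6 arrays of 1.01 for Lsp2, 0.82 for Fbp2 and 0.77 for Fbp1. The distance of Lsp2 from Fbp2 was thus below the SD of either gene, and that of Fbp1 from Fbp2 above both. CG5958 and fat-spondin lay 0.28 apart, the smallest distance of the 10 pairs, but above their SDs of 0.26 and 0.15. The distance is small because both genes varied less than Lsp2, Fbp1 and Fbp2. On control 3 they went opposite ways, at 0.53 and -0.28 relative to the mean of the other controls. The other pairs, each with CG5958 or fat-spondin, lay between 0.59 and 0.97. The named genes outside the list that came closest to Lsp2 were CG1785, at 0.28, CG2004, at 0.42, MFS1, of a transporter family, at 0.43, Fic, whose protein modifies the chaperone BiP of the endoplasmic reticulum, at 0.44, and CG12288, at 0.46. CG1785 had log2 values of 6.01, 6.12 and 6.47 in gain larvae, against 7.07, 6.07 and 7.94 in control larvae. CG2004 had 11.81, 12.03 and 12.29 in gain, against 12.47, 11.40 and 13.09 in control. These 5 were picked for closeness to Lsp2 over the same arrays, so sharing its order is no separate result. In all 5 genes control 3 was the highest array and control 2 the lowest control. None of them passed the test of gain against control, with adjusted p-values from 0.159 to 0.74.

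Among relatives by sequence, the prophenoloxidase genes PPO1 and PPO2, whose products are melanin-forming enzymes of haemocytes, had the same order within the controls as Lsp2. PPO1 had log2 values of 10.99, 11.23 and 11.11 in gain larvae, against 11.10, 10.58 and 11.58 in control larvae. PPO2 had 11.68, 11.94 and 11.77 in gain, against 11.92, 11.46 and 12.26 in control. Control 2 was lowest and control 3 highest of the controls for both. The order was not particular to these relatives. It also occurred in FASN1 and ACC of the fat body list and in the haemocyte marker NimC1. Its share over all tests was not counted. The differences of PPO1 and PPO2 were 0.02 and -0.08 without passing (adjusted p = 0.975 and 0.852). PPO3 lay below a log2 value of 4 on all arrays. Of the 7 haemocyte markers tested none passed, and their median was -0.18, against -0.15 for all tests. Their summed intensity ran from 3879 to 4211 in gain and from 4357 to 5115 in control larvae, without overlap. In 25.2% of all tests gain lay wholly below control, and the share among sums of genes was not counted. Of 8 short-chain dehydrogenase genes related to Fbp2 or of its wider family, 3 were tested, Fbp2 included, and none passed, with a median of -0.19. In the spondin family mspo, the other gene tested, stood at -0.42 and did not pass (adjusted p = 0.454).

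The CRAL-TRIO family of CG5958 held lower transcripts in gain larvae. Of 22 genes 21 had a probe set and 17 were tested; 5 fell, none rose and 12 did not pass, where 3.47% of all tests were called lower. The median of the 17 was -0.63, against -0.15 for all tests, and in 12 of them every gain array lay below every control array, against 25.2% of all tests. CG10300 had log2 values of 8.54, 7.99 and 7.96 in gain larvae, against 9.55, 9.35 and 9.26 in control larvae, a difference of -1.22 ± 0.18 (SE, limma adjusted p = 0.0222). CG33514 had 9.11, 9.15 and 9.35 in gain, against 10.20, 10.23 and 10.08 in control, a difference of -0.97 ± 0.11 (adjusted p = 0.00965). For both genes every gain array lay below every control array. CG12926 fell by 1.16 (adjusted p = 0.0098), CG5973 by 0.95 (adjusted p = 0.0426) and CG13893 by 0.66 (adjusted p = 0.0477). Without control 1 or without control 2 none of the 5 passed. CG10300 held only without gain 1 or control 3, CG5973 only without gain 3, and CG13893 in no fit with an array left out; median centring, quantile normalization and median difference centring also ended the call of CG13893. With no filter on low values CG10300 and CG5973 did not pass either (adjusted p = 0.0806 and 0.123). Of 6 tested markers of the Malpighian tubule none passed and 5 were negative, with a median of -0.56, and their summed intensity ran from 3867 to 4889 in gain and from 6255 to 6363 in control larvae; their part in the CRAL-TRIO values was not tested.

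**Figure D4:**
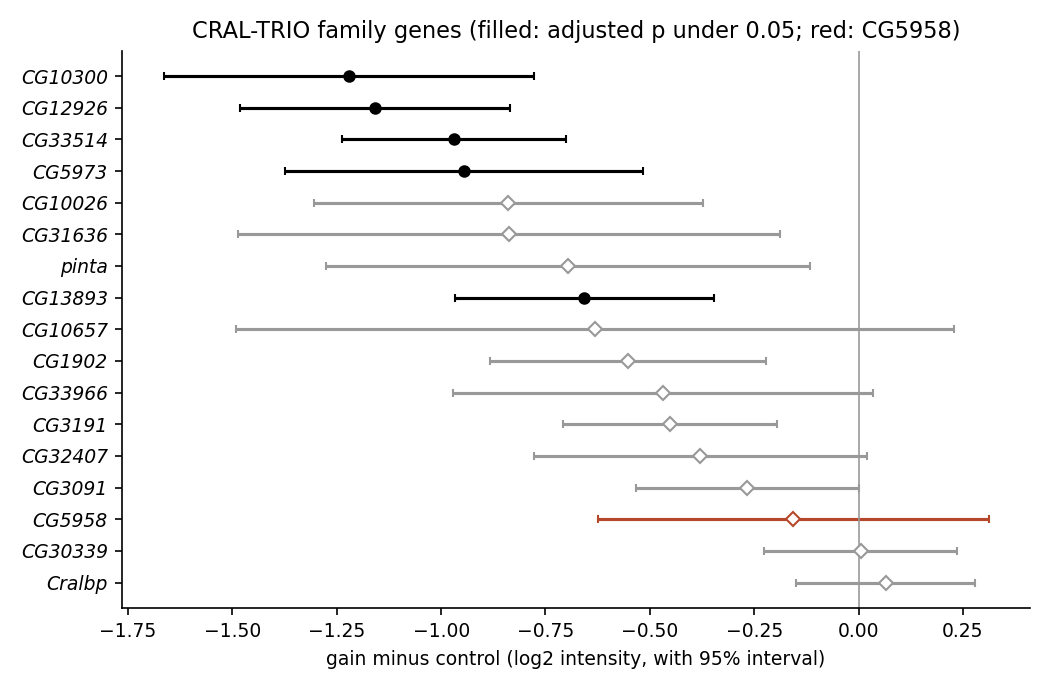
Log2 difference of gain minus control (horizontal axis) with its 95% interval for the 17 tested genes of the CRAL-TRIO family, filled where the adjusted p was under 0.05. CG5958, at -0.16, lies near 0 with an interval from -0.62 to 0.31, and its neighbour CG5973 lies at -0.95.

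CG5973 is the next protein-coding gene after CG5958 in the reference gene order. Its log2 values were 8.07, 7.72 and 8.38 in gain larvae, against 8.93, 9.11 and 8.97 in control larvae. On each array the log2 value of CG5973 minus that of CG5958 was -4.96, -5.00 and -4.77 in gain, against -3.95, -3.91 and -4.51 in control, so the groups did not overlap. The difference between groups in this contrast, singled out after the values were seen, was -0.79, with an exact two-sided permutation p of 0.1, the smallest that 3 arrays against 3 can give. CG5973 alone was already called lower, so this p is no separate support. In 30.7% of all tests, each of a single gene or probe set, the groups did not overlap. The share among differences between genes was not counted. On the far side of CG5973 lies santa-maria, a scavenger receptor gene, at -1.11 without passing (adjusted p = 0.215), and on the near side of CG5958 lies muc, at -0.13 (adjusted p = 0.594). Of the tested genes within 3 places of Lsp2, Fbp1, Fbp2 and fat-spondin, which numbered 4, 2, 2 and 3, none passed.

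Transcription factors of the ecdysone response, the fat body and growth, among them factors that bind control regions of Fbp1 or the Lsp genes, were tested for 11 of 20 genes; 2 fell, none rose and 9 did not pass, where 3.47% of all tests were called lower. The list's median was -0.37. Sox14, an ecdysone-induced factor of the SOX family, had log2 values of 4.49, 5.13 and 5.42 in gain larvae, against 7.36, 7.01 and 7.58 in control larvae, a difference of -2.30 ± 0.27 (SE, limma adjusted p = 0.0098). Hr39, a nuclear receptor gene, had a difference of -1.05 ± 0.19 (adjusted p = 0.0365). The receptor genes svp and ftz-f1 had -0.81 and -0.80 without passing (adjusted p = 0.104 and 0.426). For ftz-f1 the difference was -0.43 with its probe sets averaged and -0.25 without gain 2. It was called lower in 2 of 20 other settings. Without control 1 neither Sox14 nor Hr39 passed, and of the fits with an array left out Hr39 passed only in those without gain 2 or control 3. With no filter on low values neither passed (adjusted p = 0.0612 for Sox14 and 0.118 for Hr39), and Hr39 did not pass with its probe sets averaged (adjusted p = 0.149). Without control 3 svp was called lower, at -1.04 (adjusted p = 0.0174). The ecdysone receptor gene EcR, its partner usp, the GATA factor gene srp and Aef1, a repressor of Fbp1, had differences of -0.35, -0.24, -0.37 and -0.24, none of which passed.

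Other genes listed for the fat body were read as a set in the same whole-larva RNA. How far they measure the tissue was not tested. All 27 with a probe set were tested; none passed, their median was -0.17, against -0.15 for all tests, and their summed intensity ran from 281363 to 322245 in gain and from 306855 to 349140 in control larvae. The largest differences were in hgo, of tyrosine breakdown, at -0.93 (adjusted p = 0.107), Gnmt, a glycine methyltransferase gene, at -0.68 (adjusted p = 0.383), ImpL2, of a secreted insulin-binding protein, at 0.65 (adjusted p = 0.24), and Lsd-1, of a lipid droplet protein, at -0.63 (adjusted p = 0.269). On control 3, where Lsp2 and Fbp1 stood high, 20 of the 27 lay below both other controls and 7 above both, and their median lay at -0.21 relative to them. Of 10 genes of amino acid uptake and TOR signalling, through which the fat body senses nutrients, none passed. The amino acid transporter genes slif and JhI-21 had differences of -1.21 (adjusted p = 0.0529) and 0.69 (adjusted p = 0.116), REPTOR, a factor held back by TOR, 0.62 (adjusted p = 0.089) and mnd -0.54 (adjusted p = 0.214). REPTOR was called higher under all 3 rescalings, quantile normalization, median centring and median difference centring (adjusted p = 0.00678, 0.00583 and 0.011), and in 6 of 20 other settings in all. JhI-21 was called higher under median centring and median difference centring (adjusted p = 0.0387 and 0.0482) and with array weights (0.0124). The array weights stopped before they converged, and with them 638 of all tests were called higher. The call of slif as lower appeared in 5 of 20, among them a floor of 6 (adjusted p = 0.0419) and without control 3 (0.00572).

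Of 16 genes listed as marks of age within the third instar, 5 were tested. The 3 of them from the salivary gland separated control 3 from the other arrays. The new-glue gene ng1, which encodes a secreted product of the gland, had log2 values of 11.39, 12.59 and 12.15 in gain larvae, against 13.44, 13.66 and 9.48 in control larvae. For ng3 they were 10.15, 10.93 and 10.22 in gain, against 11.86, 12.25 and 7.71 in control, and for ng2 12.05, 11.92 and 11.46 in gain, against 12.17, 12.17 and 9.89 in control. On control 3 the 3 genes were thus lowest of all 6 arrays, 16.9-fold, 20.3-fold and 4.87-fold under the other controls for ng1, ng3 and ng2, while Lsp2 was highest there. The gain arrays lay between the lowest and the highest control for ng1, ng2 and ng3, as they did for Lsp2. The remaining 2 tested genes of the list did not follow them: Cth, of cysteine synthesis, and MsrA, of methionine repair, lay at -0.0095 and 0.0263 on control 3 relative to the other controls. None of the 5 passed with all arrays, but without control 3 ng3 was called lower in gain, at -1.62 (adjusted p = 0.0339), and without control 3 and gain 2 both ng3 (-1.87, adjusted p = 0.0165) and ng1 (-1.78, adjusted p = 0.0421) were. The glue genes Sgs1, Sgs3, Sgs4, Sgs5, Sgs7 and Sgs8 lay below the floor on all arrays, between log2 values of 1.96 and 3.57. The part that the new-glue levels, or a difference in age that they may mark, have in the spread of Lsp2 was not tested.

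**Figure D5:**
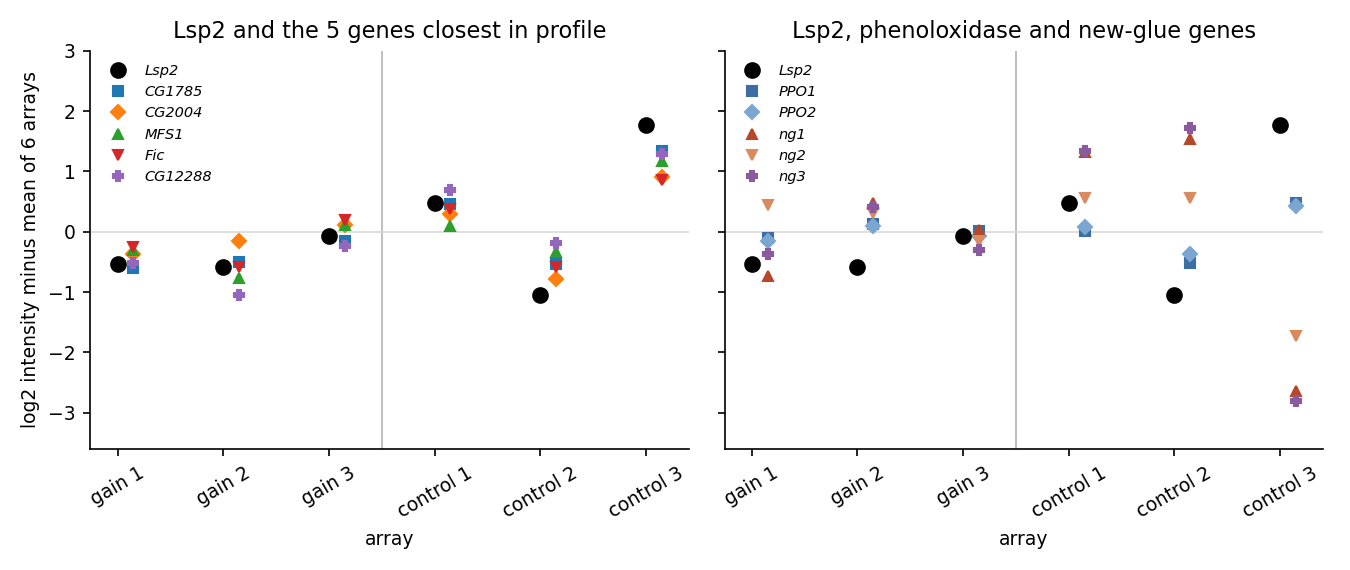
Log2 intensity minus the mean of the 6 arrays (vertical axis) on each array (horizontal axis), for Lsp2 with the 5 genes closest to it in profile (left) and with PPO1, PPO2, ng1, ng2 and ng3 (right). On control 3 Lsp2 and its 5 closest genes are at their highest, and ng1, ng2 and ng3 at their lowest.

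None of the 7 midgut, 7 muscle, 6 Malpighian tubule or 1 neuron marker genes tested passed, with medians of -0.14, -0.08, -0.56 and -0.52. The midgut trypsin gene thetaTry went against its list's median, with log2 values of 11.46, 11.50 and 11.74 in gain larvae and 9.76, 9.60 and 10.81 in control larvae. It was 2.84-fold higher in gain without overlap and did not pass (adjusted p = 0.0561), but was called in 9 of 20 other settings, among them without control 3 (adjusted p = 0.00572). Summed intensities ran from 93065 to 100770 in gain and from 97082 to 103490 in control larvae for midgut, and from 131313 to 154650 in gain and from 140744 to 155135 in control larvae for muscle. The ranges of gain and control overlapped for midgut and muscle and not for the tubule or the haemocyte markers. Gain lay wholly below control in 25.2% of all tests, and the share among sums of genes was not counted. The part of these levels in the values of the storage protein genes was not tested.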

How the data were processed

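The authors deposited linear intensities, 1 per probe set and array, for 6 arrays; per the submitters' processing notes GCRMA was used, with no version. Scanner settings and a genome build: not given in the sources used here. Probe sets were named from the platform annotation, with symbols updated by gene ID to the Release 6 plus ISO1 MT table, which also gave the gene order; 1 gene was listed for 13647 probe sets, several for 402 and none for 4720, and the remaining 183 were controls of the array.

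Intensities were log2-transformed as they stood, without a pseudocount. A test needed a log2 value of 4 or more on at least 3 of 6 arrays, and genes with several probe sets were represented by the brightest. All 5 measured members passed this filter. Gain and control were compared over all 7974 tests by linear models in limma (version 3.58.1, under R 4.3.3; lmFit, then eBayes, on the 2 groups alone); p-values were adjusted by the method of Benjamini and Hochberg, and an adjusted p under 0.05 was a call. Intervals are limma's 95% intervals. The difference that would have passed is the smallest absolute t among called tests, 5.00, times the SE. The procedure was tested on simulated data without shifts between arrays. Of 50 changes each of 0.5, 1, 2 and 4 log2 units, 6, 28, 48 and 50 were called. Of 7774 unchanged tests 18 were called. Python 3.11.15 was used for tables (pandas 2.3.3, NumPy 2.4.6) and figures (Matplotlib 3.10.9).

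The members and lists were chosen with earlier results of these data known. The rule for named genes took Hr96 and the members. From each list it took every called gene and up to 4 genes with the largest differences, called or not. It also took the 5 genes closest in profile to the member with the largest SD over the arrays, and neighbours. EcR, usp, srp, Aef1, FASN1, ACC and the glue genes were added as members of their lists. The labels gave no pairing of arrays beyond the replicate number, and the main test had no block. Deviations from the group means correlated at 0.21, 0.03 and 0.37 between gain and control arrays of the same number. The precision is limited by the number of arrays.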

Additional observations from a re-analysis of the deposited data

How the results depend on the processing

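Across 20 other settings none of the storage protein genes was called except Fbp2 with array weights (-1.62, adjusted p = 0.0411, range over all settings 0.0411 to 0.959), an estimate that stopped before it converged. Lsp2 and Fbp2 kept their sign in each; Fbp1, which a floor of 6 removed, kept it in 18 of 19 and was -0.0623 without gain 3. Leaving out 1 array gave -1.51 to -0.11 for Lsp2, -0.0623 to 0.87 for Fbp1, -1.0 to -0.05 for Fbp2, -0.28 to 0.0198 for CG5958 and -0.24 to -0.08 for fat-spondin. CG5958 turned to 0.0910 with median centring, 0.12 with array weights and 0.14 without control 3 and gain 2. The sign of fat-spondin turned with quantile normalization (4.12e-05), median centring (0.10) and median difference centring (0.000192).

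Calls over all tests, 36 higher and 277 lower, became 17 and 85 with no filter, 638 and 1928 with array weights, 129 and 631 without control 3 and gain 2, and 13 and 40 with controls 1 and 2 averaged. Higher calls were 170 with quantile normalization, 201 with median centring and 128 with median difference centring. With 1 array left out they ran from 12 to 51 higher and from 27 to 374 lower. The median of all tests moved to 0.04, 0.10 and -0.0009 under quantile normalization, median centring and median difference centring. With the replicate number as a block 41 were higher and 217 lower, and no storage protein gene was called. CG5973, CG13893 and Hr39 were lost and CG12288 and thetaTry gained. Gain 1 correlated best with control 2, at 0.34. Gain 3 correlated best with control 3, at 0.37, the highest of all pairs of a gain and a control array. Whether arrays of the same number shared a batch was not tested.

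Genes that did not pass with all arrays also turned sign. Without control 3 and gain 2 the differences were 0.12 for CG2004, 0.0659 for Fic, 0.0280 for MFS1, 0.0367 for PPO2 and -0.42 for ng2. Under quantile normalization, median centring and median difference centring PPO2 had 0.0748, 0.16 and 0.0640. Median centring gave 0.0678 for Cth, 0.10 for ng1 and 0.0743 for ng3, array weights -0.0157 for PPO1 and -0.14 for ng2, and averaging controls 1 and 2 -0.10 for PPO1, 0.53 for ng1 and 0.55 for ng3. With 1 array left out, the range was -0.74 to 0.11 for CG2004, -0.23 to 0.27 for PPO1, -0.29 to 0.11 for PPO2, -0.00217 to 0.21 for MsrA, -1.51 to 0.58 for ng1, -0.36 to 0.78 for ng2 and -1.62 to 0.65 for ng3. The causes were not tested.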
